A study of Mus musculus with 11 samples.

Results

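Nrf2, the transcription factor encoded by Nfe2l2, switches on much of the antioxidant and detoxifying equipment of a cell. In unstressed cells the adaptor Keap1 brings it to a Cul3 ubiquitin ligase for degradation, and oxidants or electrophiles that modify Keap1 let it accumulate, pair with a small Maf protein and bind antioxidant response elements. This control acts mainly on the protein, so the level of Nfe2l2 mRNA is no measure of Nrf2 activity. In wounded skin, reactive oxygen species are produced by inflammatory and resident cells, and Nrf2 targets are among the genes known to change during repair.

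The 10 genes described here are the regulators Nfe2l2 and Keap1, the glutathione supply genes Slc7a11, Gclc and Gclm, the thioredoxin and peroxiredoxin genes Txnrd1, Srxn1 and Prdx1, and the haem and quinone enzymes Hmox1 and Nqo1. They were taken by symbol from a table of 47643 gene symbols, and all 10 were present. RNA had been sequenced from fibroblasts sorted as live CD45-/CD140a+ cells, with CD3, CD11b and F4/80 as further negative markers, from normal back skin (NS) and from excisional wounds 5 days after injury (5dw). The mice were wild-type (WT) or carried a transgene in which the keratin 14 promoter drives human INHBA, the activin A subunit, in keratinocytes (Act). Both genotypes were 9 to 12 weeks old and of a mixed CD-1 and C57BL/6 background. There were 3 libraries each of WT NS, Act NS and WT 5dw, and 2 of Act 5dw, numbered 1 and 3, each made from the pooled RNA of 3 mice. The spread between libraries is therefore a spread between pools, and in such bulk RNA fewer cells of one type cannot be told apart from less RNA per cell.

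Values are RPKM, read counts scaled by exon length and by the mapped reads of the library. Mapped totals recovered from the values ran from 18649321 to 39702138 reads per library. The fibroblast gene Col1a1 averaged 3376 RPKM in WT NS and 9159 RPKM in WT 5dw, Pdgfra, which encodes CD140a, averaged 56.1 and 35.8 RPKM, and Adgre1, which encodes F4/80, reached at most 0.119 RPKM. The summed level of 13 keratinocyte markers was 1006 to 1850.0 RPKM in WT NS, 1074 to 3941 RPKM in Act NS, 158 to 1399 RPKM in WT 5dw and 357 to 427 RPKM in Act 5dw. Its make-up differed between NS and 5dw, since in WT the mean of Krt10 went from 584 to 17.8 RPKM, that of Krt14 was 238 and 234 RPKM, and that of Krt6a went from 8.63 to 118 RPKM. The sum of 8 neutrophil markers was at most 1.22 RPKM in NS and 3.1 to 21.7 RPKM in 5dw. Only 2 of the 8 reached 1 RPKM, S100a8 and S100a9, with WT 5dw means of 2.35 and 7.43 RPKM. Ly6g and Csf3r reached at most 0.0548 and 0.0945 RPKM. The 21.7 RPKM was in WT 5dw replicate 3, which also had the keratinocyte sum of 1399 RPKM. Which cells S100a8 and S100a9 came from was not tested. The sum of 6 erythroid markers was 6.01 to 37.8 RPKM in NS and 0.724 to 3.55 RPKM in 5dw. Of 9 macrophage markers 3 reached 1 RPKM, and their sum ranged from 9.88 to 17 RPKM over all groups. The sum of 7 endothelial markers was 22.3 to 39.2 RPKM in NS and 21.4 to 28.3 RPKM in 5dw, within which Pecam1 went from a mean of 4.35 to 12.2 RPKM and Tek from 24.4 to 6.22 RPKM in WT. The sum of 14 genes of dissociation and stress, which include Fos, was 6846 to 10879 RPKM in NS and 5753 to 7432 RPKM in 5dw. In WT 3 heat shock genes had the steepest relative falls among them. Hspa1a, Hspa1b and Hspb1 went from means of 355, 650.4 and 133 RPKM in NS to 144, 241 and 68.6 RPKM in 5dw. Junb went from 1001 to 586 RPKM and Fos from 1318 to 1228 RPKM. Fosb, from 893 to 915 RPKM, and Ier2, from 338 to 354 RPKM, were the only ones to rise. Beyond the values given beside the results, the part of these other cell types and stress genes in the differences between NS and 5dw was not tested.

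Antioxidant response elements are short sequences near the start of Nrf2 target genes. Their core, searched here as TGACNNNGC and as the variant TGAGNNNGC on both strands, can overlap the AP-1 motif TGANTCA, the site of Fos and Jun proteins. RefSeq promoter windows (GRCm38.p6, 250 bases before to 50 after the annotated start) were matched for 8 of the 10 genes in 10 windows, all but Hmox1 and Gclc. TGACNNNGC was found in 5 of the 10 windows and in 12.4% of all 32851 windows, TGAGNNNGC in 3 and in 17.6%, and TGANTCA in 2 and in 7.81%. One upstream match is shown for each gene that had one, because these are the letters through which the pathway is named. Each is read 5′ to 3′ on the strand of its gene, with the match in capitals, and where the gene strand carries the reverse complement of the searched core, the capitals show that reverse complement.
Nfe2l2, chr2:75704885-75704913, minus strand: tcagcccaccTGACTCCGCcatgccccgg
Gclm, chr3:122245413-122245441, plus strand: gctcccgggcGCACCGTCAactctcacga
Slc7a11, chr3:50443692-50443720, minus strand: taatgttggcGCTTTCTCAagctggagtt
Txnrd1, chr10:82859104-82859132, plus strand: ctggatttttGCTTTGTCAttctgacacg
Srxn1, chr2:152105469-152105497, plus strand: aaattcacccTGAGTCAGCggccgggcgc
Prdx1, chr4:116685456-116685484, plus strand: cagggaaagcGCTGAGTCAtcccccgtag
In the matches of Srxn1 and Prdx1 the antioxidant response element core and the AP-1 motif overlapped. The Srxn1 match began 45 bases before the annotated start and the Prdx1 match 133 bases before it. The Txnrd1 match lay before a start inside the annotated gene. A match of letters says nothing about binding in these cells, and the windows of Keap1 and Nqo1 held none of these letters.

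**Figure D1:**
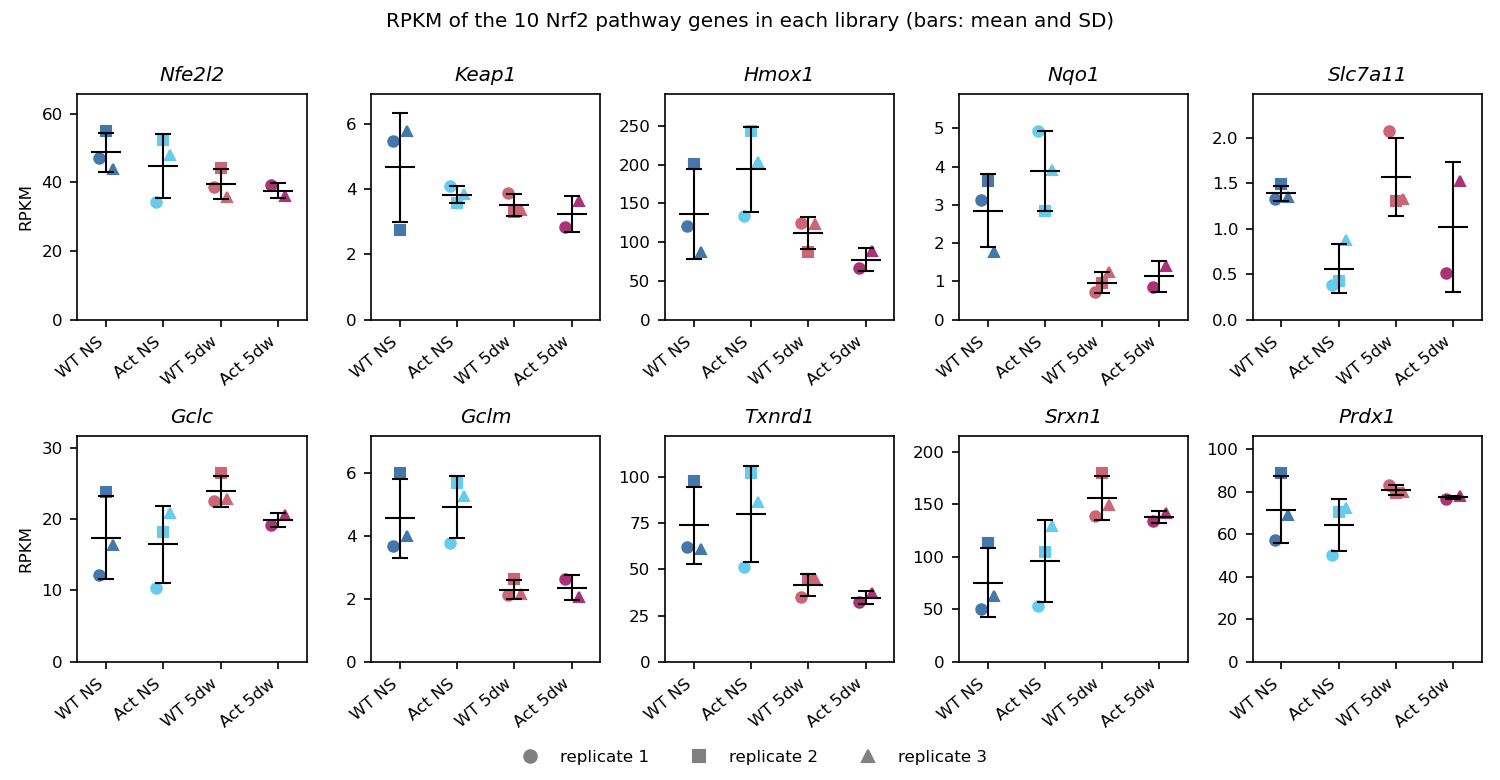
RPKM (vertical axes, each from 0) of the 10 genes in the 4 groups, with 1 symbol per library shaped by replicate number, and the mean and SD as bars. Nqo1, Gclm and Txnrd1 lay lower in every 5dw library than in any NS library, as did 38.9% of all genes tested, and Srxn1 higher, as did 8.45%.

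Wounding was the comparison in which these genes differed. In WT fibroblasts Nqo1, Gclm and Txnrd1 were lower in 5dw than in NS and Srxn1 was higher, so 4 of the 10 passed the test, beside 58.3% of the 11979 genes tested. In Act fibroblasts Nqo1, Gclm, Txnrd1 and Hmox1 were lower, again 4 of 10, beside 45.6% of all genes. Among all genes, 48.8% were called lower and 9.45% higher in WT, and 36.5% lower and 9.04% higher in Act. Counted in either direction, the 10 genes were thus called no more often than all genes, and the counts by direction were near the background or below it. The median log2FC of all genes tested was -0.40 in WT and -0.31 in Act, and that of the 10 genes was -0.26 and -0.23. All log2FC are differences of mean log2(RPKM + 0.5), tested with limma over the 11 libraries and adjusted by Benjamini-Hochberg over all genes within a comparison, with an adjusted p under 0.05 as the threshold.

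Because most genes shifted down in RPKM, the values were also rescaled so that the typical gene was equal between libraries (median-ratio scaling). After this, WT showed 3 of the 10 genes higher, Srxn1, Gclc and Prdx1, and 1 lower, Nqo1, beside 23.4% of all genes higher and 21.2% lower. Act then showed Srxn1 and Prdx1 higher and Nqo1, Gclm and Txnrd1 lower, beside 20.3% and 20.4%. Nfe2l2 and Keap1 in both genotypes and Hmox1 in WT changed sign, and all other values of the 10 genes kept theirs. Nqo1 alone was called in both genotypes on either scale. Srxn1 was called on either scale in WT, but in Act only after scaling. The falls of Gclm and Txnrd1 in WT and of Hmox1 in Act no longer passed the threshold.

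**Figure D2:**
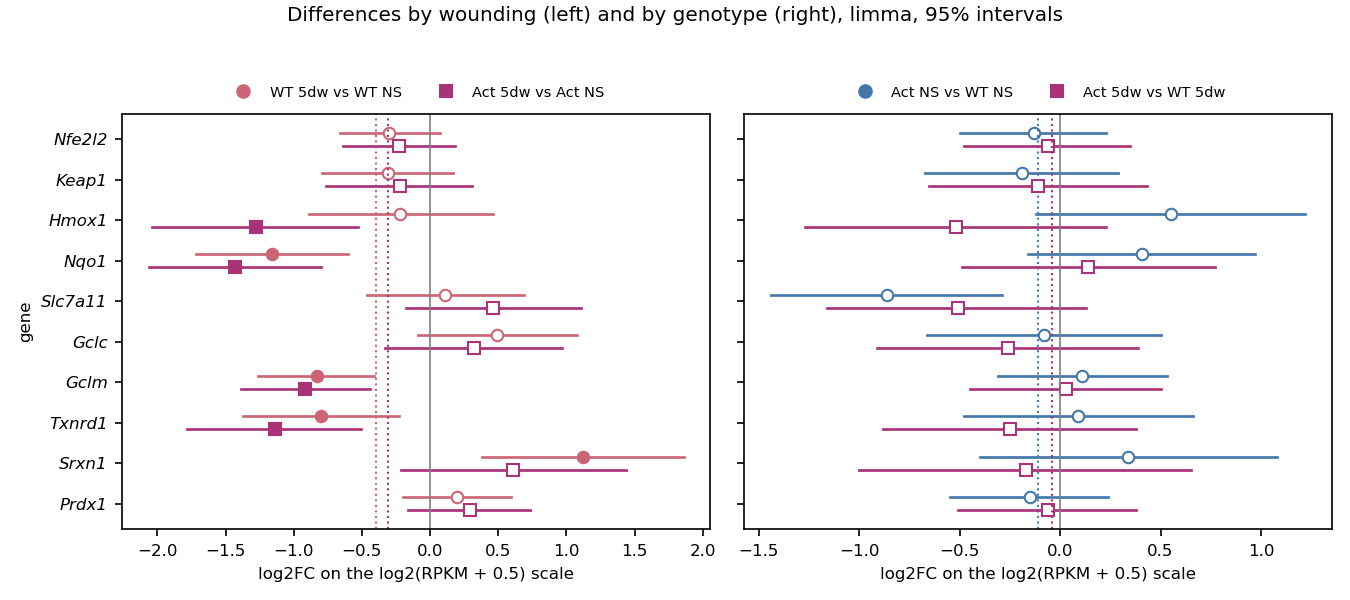
log2FC of each gene on the log2(RPKM + 0.5) scale with 95% intervals from limma, by wounding on the left and by genotype on the right. Filled symbols passed an adjusted p of 0.05 and dotted lines mark the median of all genes tested. The low values of Nqo1, Gclm and Txnrd1 stood left of those medians in both wound comparisons, no gene was called by genotype, and after median-ratio scaling Nfe2l2 and Keap1 in both genotypes and Hmox1 in WT changed sign.

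Nfe2l2 (chr2:75675513-75704641, minus strand) is the Nrf2 gene itself. It was measured at 47.1, 54.8 and 44.0 RPKM in WT NS, 34.4, 52.2 and 47.9 in Act NS, 38.6, 44.1 and 35.7 in WT 5dw, against 39.1 and 36.1 in Act 5dw. The NS and 5dw libraries overlapped in both genotypes. Its log2FC by wounding was -0.30 (SE 0.17, adjusted p = 0.145) in WT and -0.23 (SE 0.19, adjusted p = 0.333) in Act, close to the median of all genes. After median-ratio scaling these values were 0.18 and 0.14, neither of them called. A call in Act appeared only where Act NS replicate 1, the lowest NS library for this gene, was left out (log2FC -0.41, adjusted p = 0.0473).

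Keap1 (chr9:21229730-21239361, minus strand), the Nrf2 inhibitor, gave 5.47, 2.75 and 5.76 RPKM in WT NS, 4.09, 3.57 and 3.84 in Act NS, 3.89, 3.29 and 3.35 in WT 5dw. The Act 5dw values were 2.83 and 3.62 RPKM. WT NS replicate 2 was the lowest of all 11 libraries for Keap1 although it was the highest NS library of its genotype for the other 9 genes. The log2FC by wounding was -0.31 (SE 0.22, adjusted p = 0.244) in WT and -0.22 (SE 0.24, adjusted p = 0.473) in Act, and 0.12 and 0.10 after median-ratio scaling. Without WT NS replicate 2 the WT value was -0.61 and passed the threshold (adjusted p = 0.0032). Keap1 shares 510 exon bases with the antisense gene Gm16754, which reached at most 0.103 RPKM.

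Of the glutathione supply genes, Gclm was lower after wounding in both genotypes, and Gclc and Slc7a11 were not called. The 2 subunits of glutamate cysteine ligase, which makes the first and limiting step of glutathione synthesis, therefore gave log2FC of opposite sign. Gclm (chr3:122245557-122270732, plus strand), the modifier subunit, gave 3.66, 5.98 and 4.00 RPKM in WT NS, 3.78, 5.67 and 5.27 in Act NS, 2.11, 2.63 and 2.14 in WT 5dw, against 2.62 and 2.07 in Act 5dw. The highest 5dw library lay below the lowest NS library, as was the case for 38.9% of all genes tested. The log2FC was -0.83 (SE 0.19, adjusted p = 0.00389) in WT and -0.92 (SE 0.22, adjusted p = 0.00577) in Act. After median-ratio scaling the WT value was -0.42 (adjusted p = 0.0778), and without Act 5dw replicate 3 the Act value was -0.77 (adjusted p = 0.0611). Gclm overlaps the annotated genes Gm17494 on the opposite strand and Gm6061 on the same strand, over 296 and 244 exon bases, and these reached at most 1.196 and 1.417 RPKM.

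Gclc (chr9:77754535-77794485, plus strand), the catalytic subunit, gave 12.2, 23.8 and 16.3 RPKM in WT NS, 10.4, 18.2 and 20.8 in Act NS, 22.6, 26.4 and 22.8 in WT 5dw. The Act 5dw values were 19.2 and 20.6 RPKM. In both genotypes the NS libraries spread more widely than the 5dw libraries and overlapped with them. The log2FC was 0.49 (SE 0.26, adjusted p = 0.128) in WT and 0.32 (SE 0.29, adjusted p = 0.397) in Act. In WT it was called higher when the replicate number was fitted as a block (0.49, adjusted p = 0.0454), although pairing of these libraries by number is uncertain. It was also called when WT NS replicate 2 was left out (0.74, adjusted p = 0.0326) and after median-ratio scaling (0.96, adjusted p = 0.00848). When WT NS replicate 1 was left out it was 0.27 (adjusted p = 0.4).

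Slc7a11 (chr3:49892526-50443614, minus strand), the light chain of the cystine importer that supplies cysteine for glutathione, gave 1.33, 1.49 and 1.35 RPKM in WT NS, 0.384, 0.427 and 0.873 in Act NS, 2.07, 1.31 and 1.33 in WT 5dw, against 0.513 and 1.53 in Act 5dw. The 2 Act 5dw libraries stood 0.50 below and above their mean on the log2 scale, and no library of the other groups stood more than 0.40 from its mean. The log2FC by wounding was 0.11 (SE 0.26, adjusted p = 0.729) in WT and 0.46 (SE 0.29, adjusted p = 0.218) in Act. Without Act 5dw replicate 1 the Act value was 0.96 (adjusted p = 0.0295), and without Act 5dw replicate 3 it was -0.04.

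Of the thioredoxin and peroxiredoxin genes, Txnrd1 was called lower and Srxn1 higher in WT, Txnrd1 alone was called, lower, in Act, and Prdx1 was called in neither genotype. Both Txnrd1 and Srxn1 encode enzymes that keep peroxide-reducing thiols working. Txnrd1 (chr10:82833951-82897712, plus strand) encodes thioredoxin reductase 1, which passes electrons from NADPH to thioredoxin. It gave 62.1, 98.1 and 61.3 RPKM in WT NS, 51.3, 102 and 86.7 in Act NS, 34.8, 44.7 and 44.9 in WT 5dw. The Act 5dw values were 32.1 and 37.2 RPKM. No 5dw library reached the lowest NS library, as for 38.9% of all genes tested. The log2FC was -0.80 (SE 0.26, adjusted p = 0.0208) in WT and -1.14 (SE 0.29, adjusted p = 0.00826) in Act. The WT call was lost after median-ratio scaling (-0.32, adjusted p = 0.292), without WT NS replicate 2 (-0.58, adjusted p = 0.0803) and without WT 5dw replicate 1 (-0.68, adjusted p = 0.0762). The Act call was lost without Act 5dw replicate 1 (-1.04, adjusted p = 0.0621).

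Srxn1 (chr2:152105516-152111376, plus strand) encodes sulfiredoxin, which restores peroxiredoxins that peroxide has over-oxidised. It gave 50.7, 113 and 62.5 RPKM in WT NS, 53.5, 105 and 129.8 in Act NS, 139, 179.6 and 149.9 in WT 5dw, against 134 and 142 in Act 5dw. All 5 wound libraries were above all 6 NS libraries, as was the case for 8.45% of all genes tested, although Act NS replicate 3 lay close below the Act 5dw libraries. The log2FC was 1.12 (SE 0.33, adjusted p = 0.0145) in WT and 0.61 (SE 0.37, adjusted p = 0.202) in Act. The interaction of wounding and genotype was -0.51 (95% interval -1.62 to 0.60), so a smaller rise in Act was not shown. The WT call was lost without WT NS replicate 1 (0.88, adjusted p = 0.0561) and without WT NS replicate 3 (1.03, adjusted p = 0.0515). In Act, Srxn1 was called higher after median-ratio scaling (0.98, adjusted p = 0.0468) and with the replicate number as a block (0.80, adjusted p = 0.0376), although the numbers were not shown to pair the Act libraries.

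Prdx1 (chr4:116685544-116700822, plus strand), a peroxiredoxin that removes hydrogen peroxide and is a substrate of sulfiredoxin, gave 57.5, 88.7 and 69.0 RPKM in WT NS, 50.1, 70.4 and 72.4 in Act NS, 83.4, 79.4 and 80.0 in WT 5dw. The Act 5dw values were 76.8 and 78.0 RPKM. The wound libraries of both genotypes were tightly grouped. Those of Act were all above Act NS, as for 14.4% of all genes, and those of WT overlapped with WT NS. The log2FC was 0.20 (SE 0.18, adjusted p = 0.366) in WT and 0.29 (SE 0.20, adjusted p = 0.268) in Act, and 0.67 (adjusted p = 0.00601) and 0.65 (adjusted p = 0.0138) after median-ratio scaling. Of the 31-base stretches of its exons, 15.4% also occur in other annotated genes, so its level is uncertain to the extent that shared reads were split.

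Of the haem and quinone enzymes, Nqo1 had the lowest log2FC of the 10 genes in both genotypes, and Hmox1 was called lower in Act. Nqo1 (chr8:107388225-107403206, minus strand), a quinone reductase widely used as a readout of Nrf2, gave 3.14, 3.63 and 1.78 RPKM in WT NS, 4.92, 2.83 and 3.92 in Act NS, 0.714, 0.947 and 1.25 in WT 5dw, against 0.847 and 1.41 in Act 5dw. The highest 5dw value, 1.41 RPKM, lay below the lowest NS value, 1.78 RPKM, as for 38.9% of all genes tested. The log2FC was -1.16 (SE 0.26, adjusted p = 0.003) in WT and -1.43 (SE 0.29, adjusted p = 0.00249) in Act. Nqo1 was called lower in both genotypes in each of the 19 alternative settings, with adjusted p from 0.0014 to 0.0445 in WT and from 0.00142 to 0.0317 in Act. It also had the fewest reads of the 10 genes, 27 to 183 per library.

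Hmox1 (chr8:75093621-75100589, plus strand) encodes haem oxygenase 1, which breaks haem down into biliverdin, iron and carbon monoxide. It gave 121, 201 and 87.6 RPKM in WT NS, 134, 243 and 204 in Act NS, 125, 87.7 and 124 in WT 5dw. The Act 5dw values were 67.0 and 88.4 RPKM. Both Act 5dw libraries were below all Act NS libraries, as for 49.8% of all genes, whereas WT 5dw lay within the range of WT NS. The log2FC was -0.22 (SE 0.30, adjusted p = 0.557) in WT and -1.28 (SE 0.34, adjusted p = 0.0106) in Act. The Act call was lost after median-ratio scaling (-0.92, adjusted p = 0.0528) and without Act 5dw replicate 1 (-1.09, adjusted p = 0.0866). The difference between the genotypes, given by the interaction, was -1.07 (SE 0.46, 95% interval -2.08 to -0.06), with an unadjusted p of 0.0398 and an adjusted p of 0.999 in limma, and was therefore not called.

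RPKM is scaled by gene length, so the levels of the 10 genes can be set in order. Over the 6 NS libraries Hmox1 had the highest mean level, 165 RPKM with a range of 87.6 to 243, followed by Srxn1 at 85.7, Txnrd1 at 76.9, Prdx1 at 68.0 and Nfe2l2 at 46.7 RPKM. The ranges of neighbours in this order overlapped, although Hmox1 was above Srxn1, and Prdx1 above Nfe2l2, in each of the 6 libraries. Gclc followed at 16.9 RPKM, below Nfe2l2 in every library, and Gclm, Keap1 and Nqo1, at 4.73, 4.24 and 3.37 RPKM, overlapped with each other above Slc7a11 at 0.976 RPKM. Over the 5 wound libraries Srxn1 led with a mean of 149 RPKM and a range of 134 to 179.6. It lay above Hmox1, whose mean was 98.3 RPKM with a range of 67.0 to 125, without overlap. Txnrd1 and Nfe2l2, at 38.8 and 38.7 RPKM, could not be ordered, and Nqo1, at 1.03 RPKM, and Slc7a11, at 1.35 RPKM, overlapped at the low end.

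The effect of the activin transgene was addressed by comparing genotypes within NS and within 5dw. None of the 10 genes was called in either comparison by limma, where 0.0167% of all genes were called in NS and 0.0334% in 5dw. At an unadjusted p under 0.05, 1 of the 10 passed in NS, beside 6.88% of all genes, and 0 in 5dw, beside 3.22%. limma-voom on the recovered reads called 0 as well. The one gene in NS was Slc7a11, whose 3 Act NS libraries were all below the 3 WT NS libraries, as was the case for 7.98% of all genes. Its log2FC was -0.86 (SE 0.26, 95% interval -1.44 to -0.29), with an unadjusted p of 0.00724 and an adjusted p of 0.679. In 5dw its log2FC by genotype was -0.51 (95% interval -1.16 to 0.13), with the libraries overlapping.

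For the other genes the intervals give the size of difference that these libraries could hide. In NS Hmox1 had a log2FC of 0.55 by genotype (95% interval -0.12 to 1.22) and Nqo1 one of 0.41 (-0.16 to 0.97). Nfe2l2 was at -0.13 (-0.50 to 0.23), Keap1 at -0.19 (-0.67 to 0.29), Gclc at -0.08 (-0.66 to 0.50), Gclm at 0.11 (-0.31 to 0.53), Txnrd1 at 0.09 (-0.48 to 0.66), Srxn1 at 0.34 (-0.40 to 1.08) and Prdx1 at -0.15 (-0.55 to 0.24). In 5dw Hmox1 was at -0.52 (-1.27 to 0.23), Txnrd1 at -0.25 (-0.88 to 0.38) and Srxn1 at -0.17 (-1.0 to 0.65), and Nfe2l2, at -0.06 (-0.48 to 0.35), had the narrowest interval. Gclc and Prdx1 were lower in both Act 5dw libraries than in all 3 WT 5dw libraries, as were 15.2% of all genes, with log2FC of -0.26 (-0.91 to 0.39) and -0.06 (-0.51 to 0.38). The interaction of wounding and genotype was called for 0 of the 10 genes and for 0% of all genes, and at an unadjusted p under 0.05 for Hmox1 alone of the 10, beside 3.34% of all genes.

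Deviations from the group mean reached 0.74 in NS and 0.50 in 5dw on the log2 scale, and in NS many of them fell in the same libraries. WT NS replicate 2 was the highest of its group for 9 of the 10 genes, beside 28% of all genes. Act NS replicate 1 was the lowest of its group for 8 of the 10, beside 65.2% of all genes, the exceptions being Keap1 and Nqo1, which were highest there. Srxn1 stood 0.67 above its group mean in WT NS replicate 2 and 0.74 below it in Act NS replicate 1, both on the log2 scale. WT NS replicate 2 also had the fewest mapped reads, 18649321, and Act NS replicate 1 had a median-ratio factor of 0.988 where the other NS libraries had 1.16 to 1.26. The summed level of the 14 dissociation and stress genes was 6846 RPKM in WT NS replicate 2 and 7186 RPKM in Act NS replicate 1, and 7150.0 to 10879 RPKM in the other NS libraries. The part of these features in the spread was not tested. Without WT NS replicate 1 and Act NS replicate 1, which bore the same number and deviated together, the same 4 genes were called in WT, Srxn1 with a log2FC of 0.88 (adjusted p = 0.0113), and Act gained Nfe2l2 (-0.41, adjusted p = 0.0463).

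**Figure D3:**
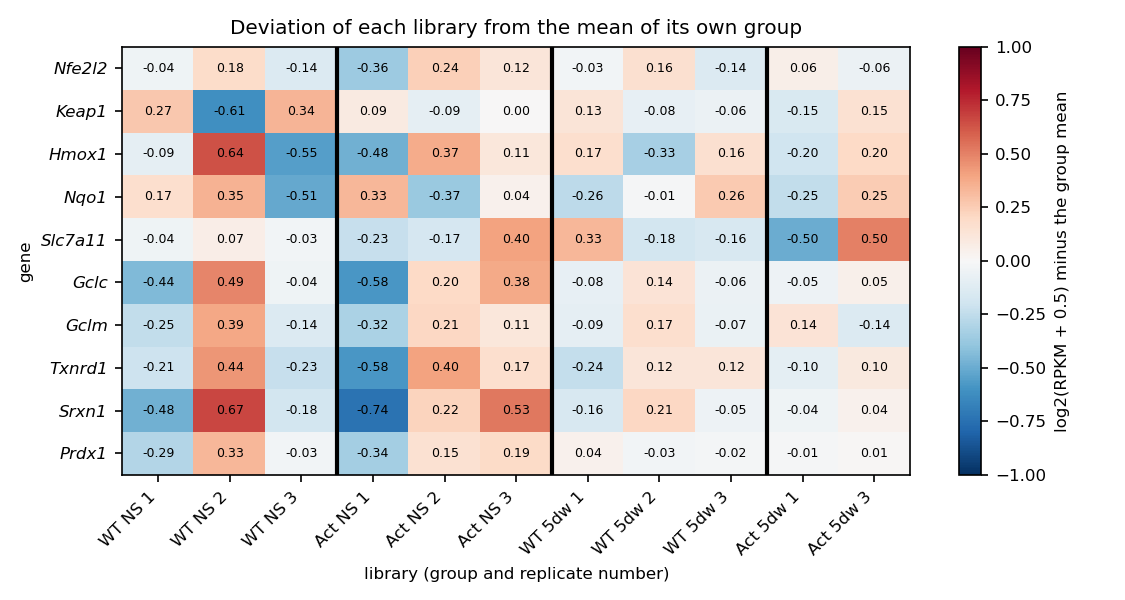
Deviation of each library from the mean of its own group on the log2(RPKM + 0.5) scale, with genes in rows, libraries in columns, red above and blue below the mean. WT NS replicate 2 was high and Act NS replicate 1 low for most genes, with 0.67 and -0.74 for Srxn1. Slc7a11 stood furthest from its mean in Act 5dw, at -0.50 and 0.50.

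Some pairs of the genes varied together across the 11 libraries and others did not. Pearson's r of log2(RPKM + 0.5) was 0.95 between Gclc and Prdx1, 0.92 between Gclc and Srxn1, 0.94 between Gclm and Txnrd1 and 0.84 between Hmox1 and Txnrd1. Between Srxn1 and Txnrd1 it was -0.29, between Slc7a11 and Srxn1 0.27, and between Keap1 and Gclm 0.07. When each library was expressed as its deviation from its group mean, Srxn1 and Txnrd1 had r of 0.90 and Gclc and Srxn1 of 0.99, so Srxn1 and Txnrd1, whose log2FC by wounding were of opposite sign, varied together inside groups. Keap1 ran against most of them inside groups, with -0.83 to Gclm and -0.68 to Srxn1. Its largest deviation was -0.61 in WT NS replicate 2, and outside WT NS none exceeded 0.15. Srxn1, Gclc and Txnrd1 deviated most in Act NS replicate 1 (-0.74, -0.58 and -0.58) and in WT NS replicate 2 (0.67, 0.49 and 0.44). These few libraries therefore weigh most in the values inside groups, and no background r over all genes is set beside them. All these r are descriptions over the same 11 libraries, which share depth and tissue, and the pairs were chosen after their values were seen.

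The genes with the most similar profile to Nfe2l2 over the 11 libraries, of 11969 compared, were Rnd3 (r 0.96), Pvrl3 (0.96), Irak3 (0.95), Hax1 (0.95) and Arhgap42 (0.95). Those most similar to Hmox1 were Adnp2 (0.91), Hdac6 (0.90), Cd74 (0.90), Mtfr2 (0.89) and Cux1 (0.88). The 10 genes themselves were left out of this search.

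Around these 10 genes, 72 further genes of redox defence and Nrf2 control were described in 8 lists, and 70 of them were high enough to be tested, all but Nox1 and Cybb. In WT 11 were higher and 26 lower after wounding, beside 9.45% and 48.8% of all genes, with a median log2FC of -0.32. In Act 8 were higher and 23 lower, beside 9.04% and 36.5%, with a median of -0.21. After median-ratio scaling 23 were higher and 15 lower in WT, beside 23.4% and 21.2% of all genes, and 18 higher and 13 lower in Act, beside 20.3% and 20.4%, so the balance of directions depended on the scaling. The counts of each list are to be read against these same shares of all genes, of which only some are repeated below. No list was tested against them. In neither genotype comparison nor in the interaction was any of them called by limma, where 4, 2 and 2 of them had an unadjusted p under 0.05 in NS, in 5dw and in the interaction, beside 6.88%, 3.22% and 3.34% of all genes. limma-voom called 0 as well.

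**Figure D4:**
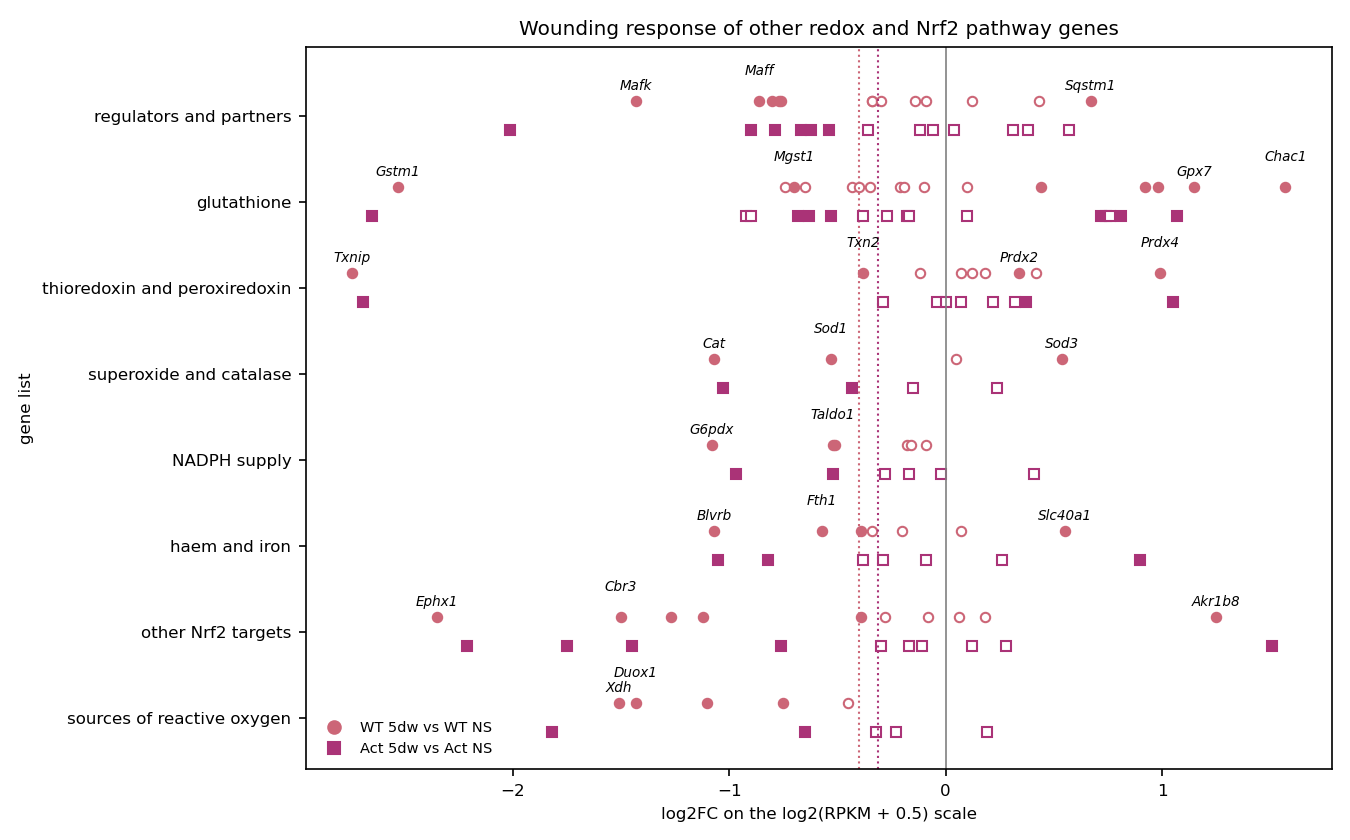
log2FC by wounding on the log2(RPKM + 0.5) scale of 70 further redox and Nrf2 pathway genes, one line per list, circles for WT and squares for Act, filled where the adjusted p was under 0.05. Dotted lines mark the median of all genes tested, -0.40 in WT and -0.31 in Act. Txnip and Gstm1 stood at the low end, and Chac1, Akr1b8 and Gpx7 at the high end in WT.

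Among 13 regulators and partners, 1 was higher and 5 lower in WT, and 0 higher and 6 lower in Act. Of all genes, 48.8% were lower in WT and 36.5% in Act. After scaling 3 were higher and 3 lower in WT, and 3 higher and 4 lower in Act. Mafk, a small Maf partner of Nrf2, fell from 31.5 ± 3.34 RPKM in WT NS to 11.6 ± 2.67 RPKM in WT 5dw (SD, n = 3 each), with a log2FC of -1.43 (adjusted p = 0.000131), and fell by 2.01 on the log2 scale in Act (adjusted p = 4.87e-05). Maff, another small Maf, fell by 0.86 in WT (adjusted p = 0.013), a call lost after scaling (-0.38, adjusted p = 0.206), without WT NS replicate 2 (-0.65, adjusted p = 0.0507) and without WT 5dw replicate 1 (-0.74, adjusted p = 0.0513). Sqstm1, which encodes the autophagy receptor p62 that competes for Keap1, rose by 0.67 in WT (adjusted p = 0.00648), and its value in Act was 0.38 (adjusted p = 0.127), called only after scaling (0.75, adjusted p = 0.00938).

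Among 16 glutathione genes, 5 were higher and 2 lower in WT, and 4 higher and 4 lower in Act. Of all genes, 9.45% were higher and 48.8% lower in WT, and 9.04% and 36.5% in Act. After scaling the counts were 7 and 1 in WT, and 5 and 1 in Act, beside 23.4% and 20.3% of all genes higher. Gstm1, a glutathione transferase, went from 137 ± 25.4 to 23.2 ± 2.75 RPKM in WT (SD, n = 3 each), a log2FC of -2.53 (adjusted p = 5.15e-06), and had -2.65 in Act (adjusted p = 1.32e-05). Mgst1, a microsomal transferase, fell by 0.70 in WT (adjusted p = 0.00167), a call lost after scaling (-0.22, adjusted p = 0.219). Chac1, which degrades glutathione, rose from 0.522 ± 0.253 to 2.51 ± 0.561 RPKM in WT (SD, n = 3 each), with a log2FC of 1.57 (adjusted p = 0.000788). In Act Chac1 was not called (0.76, adjusted p = 0.0634), and its value there ran from 0.23 to 1.29 over the alternative settings, with a call after scaling (1.02, adjusted p = 0.0246), without WT NS replicate 2 (0.76, adjusted p = 0.045) and without Act 5dw replicate 1 (1.29, adjusted p = 0.0109). Gpx7, a peroxidase of the endoplasmic reticulum, rose by 1.15 in WT (adjusted p = 2.13e-05).

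Among 9 thioredoxin and peroxiredoxin genes, 2 were higher and 2 lower in WT, and 2 higher and 1 lower in Act. Of all genes, 9.45% were higher and 48.8% lower in WT, and 9.04% and 36.5% in Act. After scaling 7 were higher and 1 lower in WT, and 5 higher and 1 lower in Act, beside 23.4% of all genes higher in WT and 20.3% in Act. Txnip, which binds and inhibits thioredoxin, went from 70.0 ± 19.6 to 9.85 ± 0.351 RPKM in WT (SD, n = 3 each), the lowest log2FC of the 70 genes, -2.74 (adjusted p = 8.81e-05), and had -2.69 in Act (adjusted p = 0.000298). Prdx4, a secretory pathway peroxiredoxin, rose by 0.99 in WT (adjusted p = 9.48e-05) and 1.05 in Act (adjusted p = 0.00019). Prdx2 rose by 0.34 in WT (adjusted p = 0.0306), and mitochondrial Txn2 fell by 0.38 (adjusted p = 0.0201) with a change of sign after scaling, to 0.08. In Act the value of Txn2 was -0.29 (adjusted p = 0.104). The WT calls of Prdx2 and Txn2 were small and were lost with single libraries left out. For Prdx2 these were WT NS replicate 1 (adjusted p = 0.0708), WT NS replicate 3 (0.0797), WT 5dw replicate 1 (0.121) and WT 5dw replicate 3 (0.0756), and its call in Act was lost in 13 of the 19 alternative settings. For Txn2 they were WT NS replicate 3 (0.0679), WT 5dw replicate 2 (0.0812) and WT 5dw replicate 3 (0.0606).

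Of the 4 superoxide and catalase genes, 1 was higher and 2 lower in WT, and 0 higher and 2 lower in Act. The shares of all genes lower were 48.8% in WT and 36.5% in Act. After scaling 1 was higher and 1 lower in each genotype. Cat, which encodes catalase, fell from 32.7 ± 1.62 to 15.3 ± 0.972 RPKM in WT (SD, n = 3 each; log2FC -1.07, adjusted p = 0.000175) and by 1.03 in Act (adjusted p = 0.00063). Cytosolic Sod1 fell by 0.53 in WT (adjusted p = 0.00454), a call lost after scaling (-0.05, adjusted p = 0.749). Its call in Act (-0.43, adjusted p = 0.0289) was lost in 6 of the 19 alternative settings, among them scaling (-0.06, adjusted p = 0.754). Extracellular Sod3 rose by 0.54 in WT (adjusted p = 0.0154), a call lost without WT 5dw replicate 3 (0.50, adjusted p = 0.0571). In Act Sod3 was not called (0.24, adjusted p = 0.314), with a call after scaling (0.60, adjusted p = 0.033) and without Act 5dw replicate 1 (0.55, adjusted p = 0.0456), and a value of -0.07 without Act 5dw replicate 3. Of 6 genes that supply NADPH, 3 were lower in WT and 2 in Act, and 0 were higher in either, beside 48.8% and 36.5% of all genes lower. After scaling 1 was higher and 1 lower in WT, and 0 higher and 1 lower in Act. In WT G6pdx, the entry enzyme of the pentose phosphate pathway, was at -1.08 (adjusted p = 0.000678) and Taldo1 at -0.52 (adjusted p = 0.0238), the latter call lost after scaling (-0.05, adjusted p = 0.802), and without WT NS replicate 2 or 3 or WT 5dw replicate 2 or 3 (adjusted p from 0.0581 to 0.0812). In Act the call of Taldo1 was lost in 12 of the 19 alternative settings.

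Of 7 haem and iron genes, 3 were lower and 1 higher in WT, and 2 lower and 1 higher in Act. The shares of all genes lower were 48.8% in WT and 36.5% in Act. After scaling 1 was lower and 2 higher in each genotype. Blvrb, a biliverdin reductase, fell by 1.07 in WT (adjusted p = 0.000236) and Fth1, the ferritin heavy chain, by 0.57 (adjusted p = 0.00476), the latter call lost after scaling (-0.09, adjusted p = 0.638), and Slc40a1, the iron exporter, rose by 0.55 (adjusted p = 0.00982). Of 10 other Nrf2 targets, 5 were lower and 1 higher in WT, and 4 lower and 1 higher in Act. These counts stand beside the same 48.8% and 36.5% of all genes lower. After scaling 4 were lower and 2 higher in WT, and 3 lower and 2 higher in Act. Ephx1, an epoxide hydrolase, went from 52.4 ± 11.5 to 9.88 ± 2.17 RPKM in WT (SD, n = 3 each; log2FC -2.35, adjusted p = 8.58e-06), Cbr3, a carbonyl reductase, fell by 1.5 (adjusted p = 9.21e-05) and Akr1b8, an aldo-keto reductase, rose by 1.25 (adjusted p = 1.56e-05). Of 5 tested genes that produce reactive oxygen, 4 were lower in WT and 2 in Act, and 0 were higher in either, beside 48.8% and 36.5% of all genes lower. After scaling 3 were lower in WT, beside 21.2% of all genes, and 1 in Act, beside 20.4%. Xdh, xanthine dehydrogenase, was at -1.51 in WT (adjusted p = 0.000157) and -1.82 in Act (adjusted p = 0.000149). Duox1, a dual oxidase, was at -1.43 in WT (adjusted p = 4.44e-05) and -0.65 in Act (adjusted p = 0.0106), where the call was lost after scaling (-0.31, adjusted p = 0.122) and without Act 5dw replicate 3 (-0.55, adjusted p = 0.0919).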

How the data were processed

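The deposited table held RPKM per gene symbol for 11 libraries. Per the labels and the methods of the study, the authors sorted the cells, pooled RNA of 3 mice per library, read poly-A RNA as single 100 bp reads with a stranded kit, mapped to GRCm38 in CLC Genomics Workbench and tested with edgeR. They had left out Act 5dw replicate 2 after quality control. Because RPKM are not counts, limma 3.58.1 (R 4.3.3) with an intensity trend was used here on log2(RPKM + 0.5) for genes with at least 1 RPKM in at least 2 libraries (11979 of 47643), with 1 mean per group and a spread shared by all 11 libraries. A fold change on that scale understates the change of low genes.

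Comparisons were 5dw against NS in each genotype, Act against WT in each tissue, and their interaction. Mapped totals and reads were recovered with GENCODE M21 exon lengths. Values were whole reads in all libraries (tolerance 0.03) for 63.6% of the 11589 tested genes with a length, among them Nfe2l2, Nqo1, Gclm, Srxn1 and Prdx1, so reads of the other 5 are approximate. limma-voom on these reads was an alternative, beside other pseudocounts, no filter, median-ratio scaling, fits of the compared groups alone, the replicate block and leaving out each library. No 2 libraries held identical values. Scripts were tested on simulated data.

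Replicate numbers were taken to pair WT NS with Act NS (correlation of deviations 0.55, 0.42 and 0.33), from the data, since the labels name no shared batch. For WT NS with WT 5dw the values were 0.19, 0.12 and 0.11, against -0.2 to 0.08 for different numbers in these groups. Over all groups, different numbers reached 0.31 and the same number went down to -0.12. Pairing of WT NS with WT 5dw is therefore uncertain. The paper states that RNA was pooled across sorting sessions. The main tests did not use the numbers. For Act 5dw only 2 numbers were shared (0.02 and 0.14 with Act NS), which did not show pairing. Members and lists were chosen with earlier results of these data known. Named genes of each further list were up to 2 with the highest and up to 2 with the lowest log2FC among those called in WT, and any called by genotype or interaction. The listed markers Flg and Itgam were not analysed here.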

Additional observations from a re-analysis of the deposited data

How the results depend on the processing

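The 10 genes gave 4 calls by wounding in each genotype. Under the 19 alternatives the count was 3 to 5 in WT, and 4 or 5 in Act wherever both Act 5dw libraries were kept. The genes and directions behind these counts changed with the scale. In WT 1 higher and 3 lower became 3 higher and 1 lower after median-ratio scaling, with only Nqo1 and Srxn1 in common. In Act 0 higher and 4 lower became 2 higher and 3 lower. Of 190 recomputed wound values per genotype, 174 in WT and 177 in Act kept direction and side of the threshold. Of the 24 named list genes, 16 kept their WT call throughout. Of their 456 recomputed values per genotype, 19 in WT and 43 in Act kept direction but not their call, 1 and 2 changed sign, and 0 and 6 gained a call. Prdx2 (13 of 19 settings) and Taldo1 (12) were among those that lost one in Act. Under the replicate block, a fit with the replicate number as a term, Gclc in WT (0.49, adjusted p = 0.0454) and Srxn1 in Act (0.80, adjusted p = 0.0376) gained a call, and no other of the 10 genes changed its call. Nqo1 had the fewest reads of the 10 genes, 27 to 183 per library, and how far depth limits each gene was not tested.

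Over all genes, the count called by genotype in NS was 9 with no filter, 0 with only the compared groups and 1 with limma-voom, in 5dw it was 18 with no filter, 2 after scaling and 2 with limma-voom, and for the interaction it was 10 with no filter. The interaction uses all groups and has no fit of the compared groups alone. Leaving out libraries gave 3509 to 6288 by wounding in Act, 0 to 11 by genotype in NS, 0 to 4 in 5dw and 0 to 2 for the interaction. The lowest in Act came without Act 5dw replicate 3, and the 11 without WT NS replicate 1 and Act NS replicate 1, a setting chosen after seeing the data. For all these changes the cause was not tested.

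Values near 0 that were not called changed sign as follows (log2FC). After median-ratio scaling, Nfe2l2 was 0.18 and Keap1 0.12 and Hmox1 0.26 in WT, Nfe2l2 0.14 and Keap1 0.10 in Act, Gclc 0.04 by genotype in NS, and the interactions of Nfe2l2, Keap1 and Prdx1 were -0.04, -0.02 and -0.02. Txn2, called in WT, became 0.08 there and 0.06 in Act. Under the block, Nfe2l2, Srxn1 and Prdx1 were 0.03, 0.01 and 0.01 by genotype in 5dw, and the interactions of Keap1 and Gclm -0.05 and 0.04.

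Leaving out libraries gave these ranges of log2FC. By wounding in WT they were Hmox1 -0.49 to 0.10, Slc7a11 -0.05 to 0.20. By wounding in Act they were Slc7a11 -0.04 to 0.96, Sod3 -0.07 to 0.55. By genotype in NS they were Nfe2l2 -0.25 to 0.05, Gclc -0.30 to 0.21, Gclm -0.02 to 0.30, Txnrd1 -0.11 to 0.38, Prdx1 -0.30 to 0.02. By genotype in 5dw they were Nfe2l2 -0.13 to 0.02, Keap1 -0.26 to 0.04, Nqo1 -0.11 to 0.39, Gclm -0.12 to 0.17. For the interaction they were Nfe2l2 -0.11 to 0.19, Keap1 -0.09 to 0.39, Slc7a11 -0.15 to 0.85, Gclc -0.47 to 0.05, Gclm -0.28 to 0.06, Prdx1 -0.08 to 0.24.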
